A study of Mus musculus with 12 samples.

Results

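The comparison described here sets *Fmr1* KO mice that had received Nutlin-3 (KO-Nut3) against wild-type mice that had received vehicle (WT-Veh), and asks how near the hippocampal transcriptome of the treated mutants lay to the untreated WT state. It uses 6 of the 12 libraries of the series, each from a separate mouse, namely KO-Nut3 RH6, RH8 and RH13 and WT-Veh RH2, RH5 and RH15, chosen by genotype and treatment as labelled. The mice, of the C57BL/6 background, were injected at 2 months of age, and the hippocampus of each was taken for poly(A) RNA-seq at 6 months. KO mice carry an *Fmr1* knockout in all tissues, so neurons and every other cell type of the hippocampus lack the protein alike. Vehicle-injected KO mice (KO-Veh RH7, RH10 and RH16) and Nutlin-3-injected WT mice (WT-Nut3) make up the other libraries. KO-Veh values stand beside the comparison where they help to place it, and they share libraries with it. Between 17150820 and 19562517 reads fell on genes in the WT-Veh libraries, and between 17221891 and 18234575 in those of KO-Nut3. Levels are in CPM (counts scaled to a common library size with TMM factors), and every fold change is a log2 difference of KO-Nut3 from WT-Veh unless another pair is named.

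FMRP, the product of *Fmr1*, is an RNA-binding protein that represses the translation of many mRNAs, a large share of them encoding synaptic proteins. Its loss causes fragile X syndrome. Among its targets is the mRNA of MDM2, the ubiquitin ligase that marks p53 and other proteins for degradation, and Nutlin-3 is a small molecule that occupies the p53-binding pocket of MDM2. In the adult hippocampus new neurons arise from stem cells of the dentate gyrus, which lie close to blood vessels. The ventricles beside the hippocampus are lined by ependyma and hold the choroid plexus, which secretes cerebrospinal fluid.

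*Fmr1* (ENSMUSG00000000838, X:68678541-68717963, plus strand, GRCm38) was read first because it checks the labels. Its level was 79.5, 75.3 and 77.7 CPM in WT-Veh RH2, RH5 and RH15, and 30.6, 28.5 and 35.7 CPM in KO-Nut3 RH6, RH8 and RH13. It was 32.7, 32.5 and 37.3 CPM in KO-Veh. The KO libraries thus kept a lower but clearly detected level of *Fmr1* RNA, and no KO library overlapped a WT one. The KO-Nut3 mean of 31.6 ± 3.71 CPM stood against a WT-Veh mean of 77.5 ± 2.11 CPM (SD, n = 3 mice per group), a difference of -1.29 (SE 0.0882, 95% interval -1.49 to -1.10, edgeR adjusted *P* = 0.00224). Nutlin-3-treated and vehicle-treated KO libraries differed by -0.11 (95% interval -0.34 to 0.12). The call rests on few libraries, as without WT-Veh RH2 or RH15 the difference was -1.28 and -1.29 with edgeR adjusted *P* = 0.0559 and 0.0518.

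Neuronal markers of hippocampus were well expressed in all libraries compared, and 3 of these libraries stood apart in some genes, KO-Nut3 RH6 in neuronal markers too. *Camk2a*, the kinase subunit abundant in excitatory neurons, measured 4861, 4041 and 4211 CPM in WT-Veh and 2754, 4052 and 4036 CPM in KO-Nut3, and *Prox1*, the transcription factor of dentate granule neurons, measured 132, 102 and 121 CPM in WT-Veh and 91.9, 119 and 123 CPM in KO-Nut3. In both genes the lowest library was KO-Nut3 RH6. That library was also high in thalamic markers, since *Slc17a6*, the vesicular glutamate transporter of thalamic neurons, was at 113 CPM against 8.42 to 16.8 CPM in the other 5 libraries. KO-Nut3 RH8 was the lowest of its group in choroid plexus markers, and WT-Veh RH5 was the highest of its group in fibroblast and macrophage markers. For several of the lists whose median moved without these libraries, though not for all, it is given with and without them. The RNA came from whole tissue, so fewer cells of a type and less RNA per cell cannot be told apart in any value below.

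Of the 22592 genes tested, *Fmr1* was the only gene past the threshold of an adjusted *P* of 0.05 in the edgeR quasi-likelihood test, which is 0.00443% of the genes. The same test called 4 genes in KO-Veh against WT-Veh (0.0177%) and 48 in KO-Nut3 against KO-Veh (0.212%). The unadjusted *P* was under 0.05 for 2068 genes (9.15%), of which 1242 were higher (5.5%) and 826 lower (3.66%) in KO-Nut3. The groups did not overlap in 3391 genes (15%), 1789 higher (7.92%) and 1602 lower (7.09%). DESeq2 on the same libraries called 218 of 21249 genes (1.03%), 192 higher and 26 lower. Leaving KO-Nut3 RH8 out of the edgeR fit gave 195 calls (0.863%), 191 of them higher (0.845%), and 135 of these were also called by DESeq2 with all libraries. The number of genes called between treated KO and vehicle WT mice thus ran from 0 to 391 according to the fit, and the genes that DESeq2 and the fit without RH8 gave were mostly higher in KO-Nut3.

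**Figure D1:**
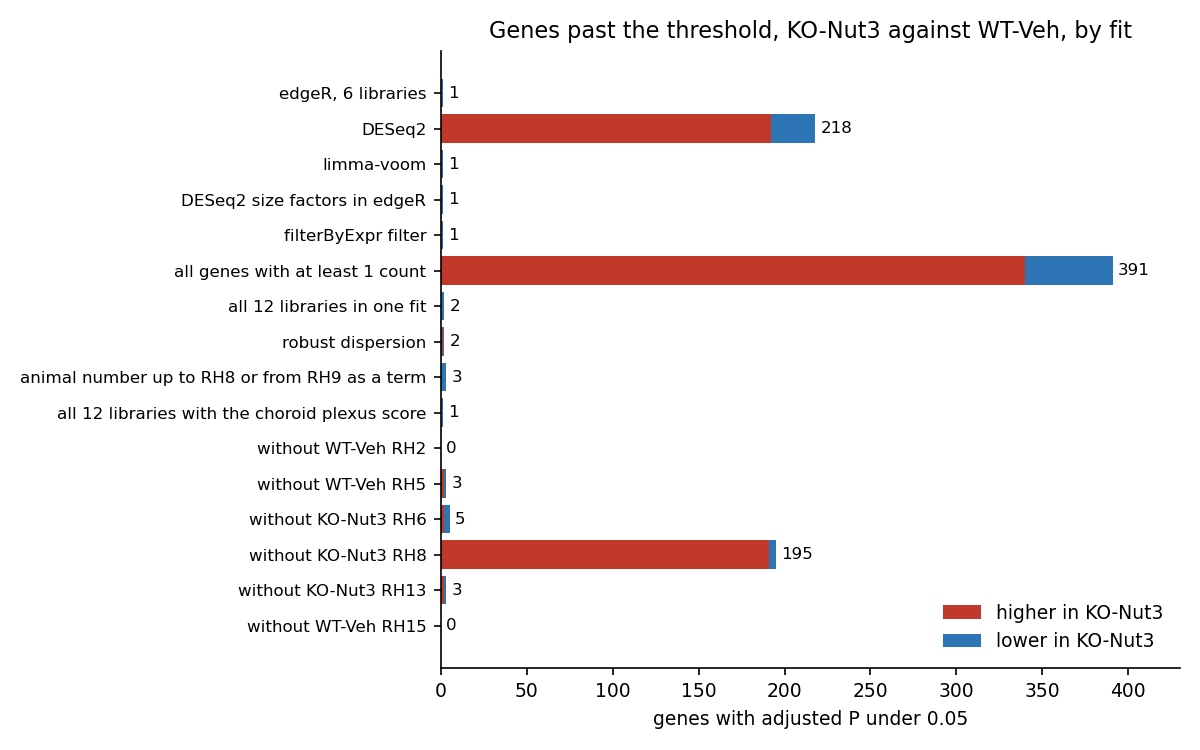
Number of genes past an adjusted *P* of 0.05 in KO-Nut3 against WT-Veh under each fit, with genes higher in KO-Nut3 in red and lower ones in blue. DESeq2 (218 genes), edgeR without KO-Nut3 RH8 (195) and edgeR on all genes with at least 1 count (391) stand far above the other fits, which called 0 to 5 genes.

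A missed threshold does not show that levels are alike, so the 95% intervals of the differences were counted as well. For 13916 of the 22592 genes (61.6%) the whole interval lay within 2-fold in either direction. The share followed the level of the gene. It was 2.886% of genes under 1 CPM, 69.72% of those from 1 to 10 CPM, 98% of those from 10 to 100 CPM and 99.58% of those at 100 CPM or more. At least 1 CPM was reached by 15419 genes, and for 70.15% of them a difference of more than 1.5-fold lay outside the interval. A total of 173 genes had intervals wholly beyond 2-fold. For nearly all genes of at least 10 CPM the treated KO and the vehicle WT groups were therefore within 2-fold of each other, while for genes under 1 CPM these libraries could show little in either direction.

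The distance between libraries was taken as the root mean square difference of log2 CPM over genes of at least 1 CPM. KO-Nut3 and WT-Veh libraries lay a median of 0.4803 apart over 9 pairs (range 0.3251 to 0.6022). KO-Veh and WT-Veh libraries lay a median of 0.3581 apart (0.3059 to 0.3924), and the 3 pairs within WT-Veh lay 0.3520 to 0.3933 apart. The 3 pairs within KO-Nut3 lay 0.3837 to 0.4446 apart, with a median of 0.4152, a median above that within WT-Veh. Vehicle-treated KO libraries were as near to WT-Veh libraries as these were to each other, and treated KO libraries lay farther from WT-Veh than the most distant pair within WT-Veh in 7 of 9 pairs. KO-Nut3 RH6 was 0.6022, 0.5042 and 0.5461 from WT-Veh RH2, RH5 and RH15, KO-Nut3 RH13 was 0.5053, 0.4542 and 0.4803 away, and KO-Nut3 RH8 was 0.4438, 0.3251 and 0.3868 away. KO-Nut3 RH8 was the nearest of its group to each of the WT-Veh libraries. The number of genes that differed by more than 2-fold in a pair had a median of 563 between KO-Nut3 and WT-Veh and of 291 between KO-Veh and WT-Veh. Distances were also taken without 133 genes, those listed for choroid plexus, ependyma, fibroblasts, matrix, border macrophages and thalamus and those the study picked for qPCR. The medians were then 0.4199 for KO-Nut3 and WT-Veh, 0.3417 for KO-Veh and WT-Veh, 0.3492 within WT-Veh and 0.4109 within KO-Nut3, the last close to the distance between KO-Nut3 and WT-Veh.

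**Figure D2:**
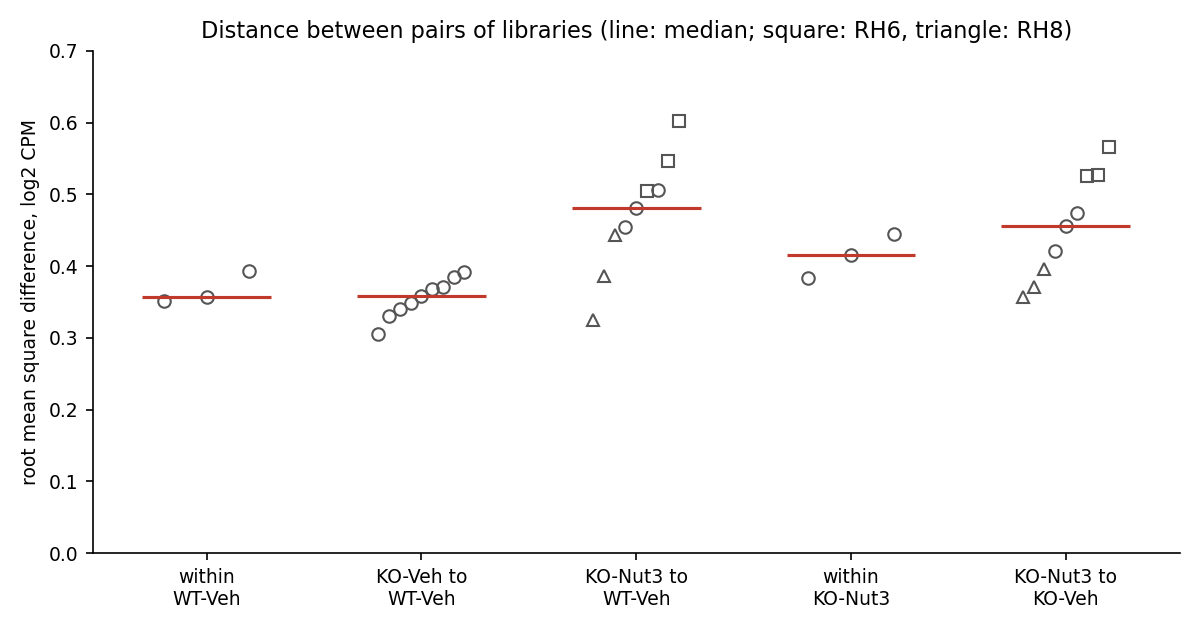
Distance between pairs of libraries (root mean square difference of log2 CPM), each point a pair and each line the median of its kind of pair, with pairs of KO-Nut3 RH6 as squares and of RH8 as triangles. Pairs of KO-Nut3 with WT-Veh have a median of 0.4803, above the 0.3581 of KO-Veh with WT-Veh.

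The 4 genes that edgeR called between vehicle-treated genotypes, *Fmr1*, *Gm21887*, *Col5a1* and *Wfs1*, show what treated KO mice looked like where the mutant had differed. *Col5a1*, a chain of type V collagen, measured 25.4, 36.4 and 33.2 CPM in WT-Veh, 16.1, 17.3 and 14.3 CPM in KO-Veh and 19.2, 23.0 and 16.7 CPM in KO-Nut3. Every KO library lay below every WT-Veh library, and KO-Nut3 was between the others on average. The difference was -0.998 in KO-Veh against WT-Veh (edgeR adjusted *P* = 0.0149) and -0.69 in KO-Nut3 against WT-Veh (SE 0.154, edgeR adjusted *P* = 0.207, DESeq2 adjusted *P* = 0.00546). *Wfs1*, which encodes a membrane protein of the endoplasmic reticulum and is abundant in CA1 pyramidal neurons, measured 124, 125 and 134 CPM in WT-Veh, 90.6, 90.2 and 102 CPM in KO-Veh and 116, 81.7 and 78.8 CPM in KO-Nut3. The KO-Nut3 libraries all lay below WT-Veh, RH6 nearest to it. Its difference was -0.44 in KO-Veh (edgeR adjusted *P* = 0.0399) and -0.47 in KO-Nut3 (SE 0.131, edgeR adjusted *P* = 0.302), and -0.67 without KO-Nut3 RH6, where it passed the threshold. These genes were called against the same WT-Veh libraries, so their lower values in KO-Nut3 are not independent of that call. Some WT-Nut3 libraries were also below WT-Veh, *Col5a1* being at 28.8, 22.5 and 16.8 CPM and *Wfs1* at 142, 100.3 and 121 CPM in WT-Nut3.

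*Gm21887*, listed as *Erdr1* (erythroid differentiation regulator 1), was the gene of the 4 whose level in KO-Nut3 was that of WT-Veh. Its raw counts were 1, 4 and 0 in WT-Veh RH2, RH5 and RH15, 193, 211 and 243 in KO-Veh RH7, RH10 and RH16, and 6, 0 and 4 in KO-Nut3 RH6, RH8 and RH13. The KO-Nut3 and WT-Veh groups overlapped, with a difference of 0.98 that these few counts left between -1.65 and 3.61 (95% interval, edgeR adjusted *P* = 0.853). Its counts did not follow genotype and treatment in the rest of the series, being 1, 582 and 329 in WT-Nut3 RH1, RH9 and RH14. The gene shares sequence with *Gm47283* on chromosome Y, and a read that maps to both is counted for neither. The study's *Erdr1* primers are shown here because the forward primer lies in sequence that both genes hold. Both are 5′ to 3′, with no part in capitals.
Erdr1 forward: tgatgtcacccacgaaagca
Erdr1 reverse: ttcctccgtgagaatcgctc
The forward primer was found in 2 of 3 annotated transcripts of *Gm21887* and 4 of 4 of *Gm47283*, and the reverse primer in 0 of 3 and 4 of 4. *Gm47283* had counts of 406, 286 and 333 in WT-Veh, 269, 342 and 339 in KO-Veh and 294, 317 and 232 in KO-Nut3, with overlap among all groups. Reads of the pair that mapped to more than 1 place were not counted, so the level of *Gm21887* is uncertain.

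Gene lists were read next, each by its counts and its median, beside the median of 0.01 over all genes tested. All lists had been picked with earlier results of these data known, so their counts are not independent evidence. Members near the floor in WT-Veh could also pass the count filter through the libraries where they were high. The genes of the choroid plexus epithelium, the secretory layer in the ventricles, differed most. Of 30 tested members, each with an unadjusted *P* under 0.05, all 30 were higher in KO-Nut3 (5.5% of all genes were), 27 without overlap of the groups (7.92% of all genes), and the median difference was 3.38. *Ttr*, the thyroid hormone carrier transthyretin and the most abundant of the list in KO-Nut3, measured 6.39, 9.56 and 5.15 CPM in WT-Veh against 3091, 314 and 4519.7 CPM in KO-Nut3, a difference of 8.55 (SE 0.969, edgeR adjusted *P* = 0.0734). KO-Nut3 RH8 was well below the other treated KO libraries and still far above WT-Veh. *Enpp2*, which makes lysophosphatidic acid as autotaxin, measured 113, 130.5 and 139 CPM in WT-Veh and 1532, 278 and 1945 CPM in KO-Nut3 (difference 3.30, edgeR adjusted *P* = 0.129). The bicarbonate transporter gene *Slc4a5* had no more than 3 counts in any WT-Veh library and was at 30.1, 3.44 and 37.6 CPM in KO-Nut3. Only *Oca2*, *Cldn1* and *Car12* overlapped between groups, in each case through KO-Nut3 RH8.

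The summed level of the 30 genes was 252, 284 and 271 CPM in WT-Veh and 5601, 820 and 7671 CPM in KO-Nut3, and their mean log2 CPM was 0.43, 0.92 and 0.71 in WT-Veh against 4.98, 2.57 and 5.27 in KO-Nut3. In KO-Veh that mean was 0.76, 0.61 and 1.15, and in WT-Nut3 RH1, RH9 and RH14 it was 0.82, 5.18 and 1.01. WT-Nut3 RH9, a library of a WT mouse, thus lay among the KO-Nut3 values, with *Ttr* at 4215 CPM. DESeq2 called 25 of the 30 as higher (0.904% of all genes), edgeR called none with all libraries and 28 without KO-Nut3 RH8 (0.845% of all genes). The median ranged from 2.91 to 3.83 with each library left out in turn. A fit of all 12 libraries with the list's score as a term called *Fmr1* alone, at -1.35, with 774 genes at an unadjusted *P* under 0.05 in edgeR. The same fit without the term called 2 genes and had 2570 at an unadjusted *P* under 0.05. The score did not overlap between KO-Nut3 and WT-Veh, so such a term also takes up difference between these groups. The part of choroid plexus in the other differences was not tested.

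**Figure D3:**
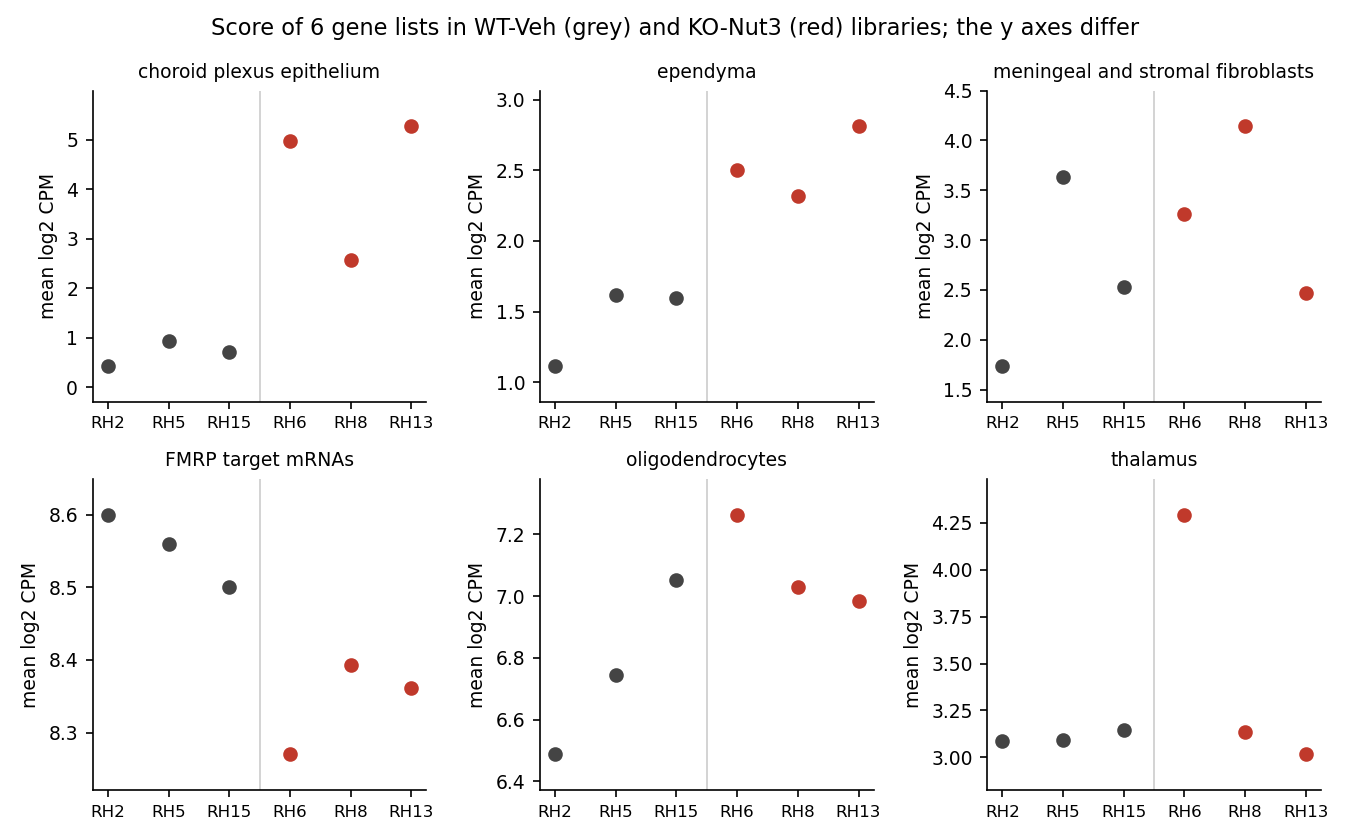
Mean log2 CPM of the genes of 6 lists in each library, WT-Veh in grey and KO-Nut3 in red, with a y axis of its own for each list. The choroid plexus score was 0.43 to 0.92 for WT-Veh and 2.57 to 5.27 for KO-Nut3, the ependyma and FMRP target scores did not overlap either, and the thalamus score was high in KO-Nut3 RH6 alone. WT-Nut3 RH9, not shown, had a choroid plexus score of 5.18.

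Ciliated ependymal cells, which line the ventricles, also gave higher values. Of 14 tested genes, 11 had an unadjusted *P* under 0.05 and all 11 were higher in KO-Nut3 (5.5% of all genes), 10 of the 14 without overlap (7.92%), and the median was 1.23. *Foxj1*, the transcription factor of motile cilia, measured 8.24, 8.67 and 12.3 CPM in WT-Veh and 26.8, 18.6 and 24.8 CPM in KO-Nut3 (difference 1.26, SE 0.186, edgeR adjusted *P* = 0.122). *Hydin*, a protein of the central apparatus of cilia, measured 3.22, 3.99 and 3.61 CPM in WT-Veh and 8.6, 8.08 and 8.51 CPM in KO-Nut3 (difference 1.22, SE 0.154, edgeR adjusted *P* = 0.12, DESeq2 adjusted *P* = 1.91e-05). The libraries of each group lay close together for *Hydin*, RH8 included, unlike for the choroid plexus genes, but *Hydin* in KO-Veh was 3.72, 3.95 and 7.92 CPM, RH16 being close to KO-Nut3. The mean log2 CPM of the list was 1.12, 1.62 and 1.60 in WT-Veh and 2.5, 2.32 and 2.81 in KO-Nut3. KO-Veh RH16 and WT-Nut3 RH9, at 2.44 and 2.40, lay inside the KO-Nut3 range. In KO-Veh against WT-Veh the median of the same genes was 0.56. KO-Veh overlapped KO-Nut3 in *Foxj1*, at 12.5, 11.4 and 20.7 CPM. *Dnah5*, *Dnah9* and *Spag17*, further genes of motile cilia, differed by -0.07, 0.08 and 0.03. *Zic1* and *Zic4*, neighbouring genes of zinc finger transcription factors, differed by 1.70 and 1.61, and passed the edgeR threshold without KO-Nut3 RH13. In KO-Veh RH16 they were as high as in KO-Nut3, at 51.1 and 12.8 CPM.

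Collagens gave a median of 0.62 over 26 tested genes, with 9 higher (5.5% of all genes) and 3 lower (3.66%) at an unadjusted *P* under 0.05. The median was 0.26 without KO-Nut3 RH8 and 0.81 without WT-Veh RH5. The mean log2 CPM of the list was 2.88, 3.36 and 2.94 in WT-Veh and 3.87, 3.58 and 3.66 in KO-Nut3. In WT-Nut3 RH1, RH9 and RH14 it was 2.99, 3.69 and 2.77, RH9 lying inside the KO-Nut3 range. *Col8a1*, which is in the choroid plexus list too, measured 0.836, 2.05 and 1.70 CPM in WT-Veh and 22.0, 4.12 and 30.1 CPM in KO-Nut3 (difference 3.60, edgeR adjusted *P* = 0.137). *Col8a2*, *Col9a3*, *Col4a3* and *Col4a4* differed by 2.62, 2.51, 2.44 and 2.12. The fibril-forming chains *Col1a1*, *Col1a2* and *Col3a1* differed by 0.64, 0.79 and 0.77 with overlapping groups, and *Col5a1* and *Col6a1* were lower by 0.69 and 0.97. The collagens with the greatest differences were thus not the fibril-forming chains. Laminins and other matrix proteins had a median of 0.25 over 34 genes (8 higher against 5.5% of all genes and 2 lower against 3.66% at an unadjusted *P* under 0.05), among them *Nid2* at 1.06 and *Tgfbi* at 1.26. Without KO-Nut3 RH8 that median was 0.06, and without WT-Veh RH5 it was 0.49. In the latter fit 16 genes were higher at an unadjusted *P* under 0.05 (1088 of all 22592 genes were). The 18 fibroblast genes had a median of 0.63 with 2 at an unadjusted *P* under 0.05 (9.15% of all genes), and the median ran from 0.02 to 1.34 as libraries were left out. The number at an unadjusted *P* under 0.05 was 11 without WT-Veh RH5 and 0 without WT-Veh RH15. Their mean log2 CPM was 1.74, 3.63 and 2.53 in WT-Veh and 3.26, 4.14 and 2.46 in KO-Nut3, with overlap, and the part of fibroblasts in the matrix genes was not tested.

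*Vcam1*, a cell adhesion molecule of vessels, ependyma and stem cells, had the smallest adjusted *P* after *Fmr1* together with *Ttr*. It measured 18.2, 21.3 and 19.8 CPM in WT-Veh, 32.5, 36.7 and 38.6 CPM in KO-Nut3 and 23.1, 18.8 and 20.8 CPM in KO-Veh. The treated KO libraries stood above all others, RH8 not being low here, and the nearest was WT-Nut3 RH9, whose group measured 17, 30.6 and 19.2 CPM in RH1, RH9 and RH14. The difference was 0.86 (SE 0.0993, edgeR adjusted *P* = 0.0734, 0.0314 with robust dispersion) and lay between 0.80 and 0.93 with each library left out.

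**Figure D4:**
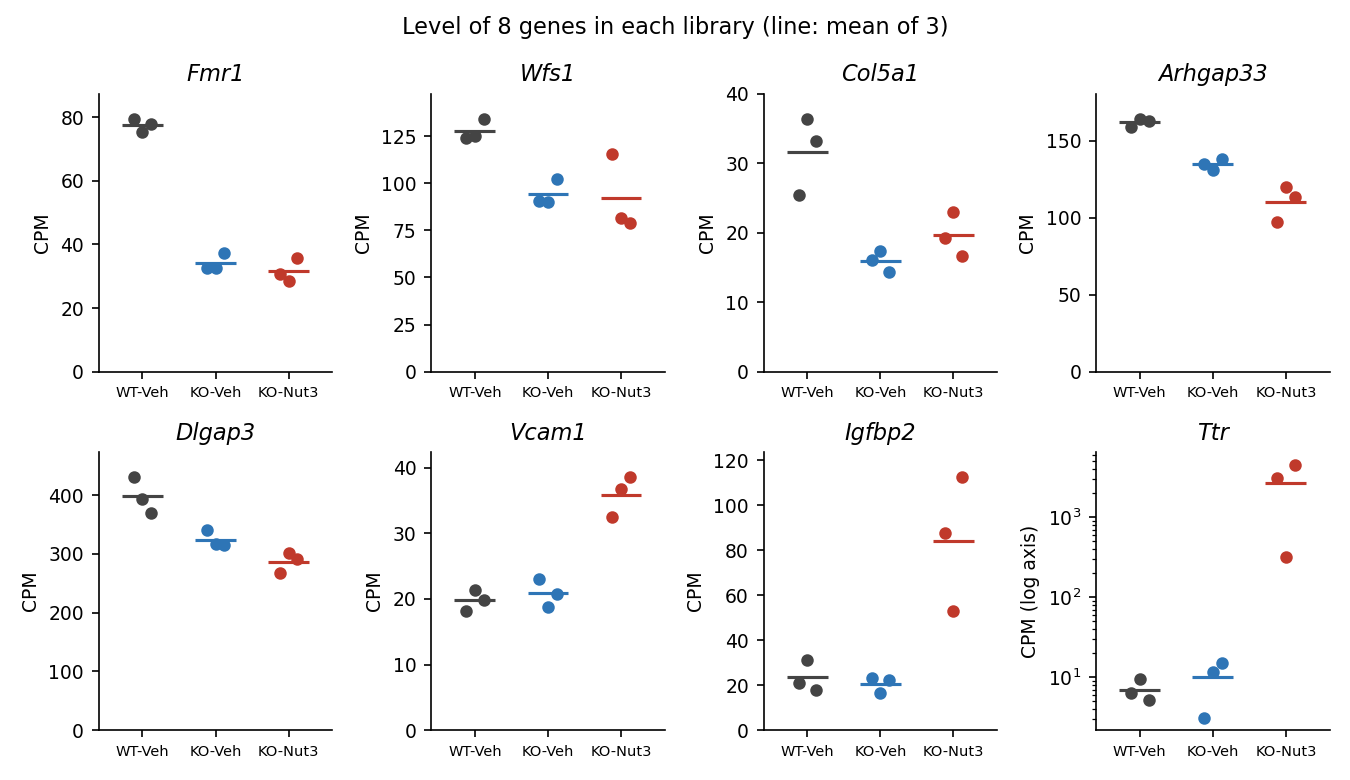
Level in CPM of 8 genes in each WT-Veh (grey), KO-Veh (blue) and KO-Nut3 (red) library, lines being means of 3 libraries, with a log axis for *Ttr* and axes that differ between genes. *Fmr1*, *Col5a1* and *Arhgap33* are lower in all KO-Nut3 than in all WT-Veh libraries, and *Vcam1*, *Igfbp2* and *Ttr* are higher.

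The mRNAs that FMRP is known to bind were on the lower side. Of 29 listed FMRP target mRNAs, all tested, 14 had an unadjusted *P* under 0.05 and all 14 were lower in KO-Nut3 (3.66% of all genes were), 15 without overlap (7.09%), and the median was -0.21. *Dlgap3*, a scaffold protein of the postsynaptic density, measured 430.4, 394 and 369 CPM in WT-Veh and 268, 301 and 291 CPM in KO-Nut3 (difference -0.47, SE 0.0767, edgeR adjusted *P* = 0.122, DESeq2 adjusted *P* = 7.78e-05). KO-Veh was between them at 341, 316 and 316 CPM (difference from WT-Veh -0.29, edgeR adjusted *P* = 0.407). *Shank1*, which encodes a scaffold that joins glutamate receptors to actin, measured 876, 841 and 763 CPM in WT-Veh, 625, 668 and 660.0 CPM in KO-Nut3 and 715, 703 and 717 CPM in KO-Veh (difference -0.35, SE 0.0731, edgeR adjusted *P* = 0.19, DESeq2 adjusted *P* = 0.00506). For *Dlgap3* and *Shank1* both KO groups lay below WT-Veh, and KO-Nut3 was the lower of the pair. *Dlgap3* in WT-Nut3 RH1, RH9 and RH14 was at 404, 340 and 364 CPM, RH9 lying inside the KO-Veh range. *Shank3* and *Bsn*, the latter a scaffold of the presynaptic zone, differed by -0.34 and -0.34, and KO-Nut3 RH6 was their lowest library.

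The target mRNAs had a mean log2 CPM of 8.60, 8.56 and 8.50 in WT-Veh and 8.27, 8.39 and 8.36 in KO-Nut3, so the groups were separate with a narrow gap. In WT-Nut3 RH1, RH9 and RH14 the mean was 8.56, 8.42 and 8.50, RH9 being below the 8.45 to 8.48 of KO-Veh. Their median difference was -0.11 in KO-Veh against WT-Veh and -0.13 in KO-Nut3 against KO-Veh. It ranged from -0.25 to -0.16 with each library left out, the smallest without KO-Nut3 RH6, and the number at an unadjusted *P* under 0.05 ranged from 7 to 17. Abundant genes as a whole were lower too. Among the 2372 genes of at least 100 CPM the median was -0.06, and 19.4% of them were lower without overlap of the groups against 2.99% higher. The difference also went with base composition and length. When genes of at least 10 CPM were divided into 4 equal classes, the class richest in G and C had a median of -0.03 and the poorest 0.01, and the longest and shortest classes had -0.02 and 0.01. The target mRNAs had a median GC content of 55.13% and a median length of 7760 bases, against 49.6% and 3791 bases over all 10325 genes of at least 10 CPM. The part of level, GC content and length in the lower values was not tested.

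*Arhgap33*, which encodes a synaptic sorting nexin and is not in the target list, had the smallest *P* among lower genes after *Fmr1*. It measured 159, 164 and 163 CPM in WT-Veh, 135, 131 and 138 CPM in KO-Veh and 97.2, 120.0 and 113 CPM in KO-Nut3. These 9 libraries formed 3 separate bands in that order, but WT-Nut3 libraries, at 155, 136 and 137 CPM, reached into that of KO-Veh. The difference was -0.55 (SE 0.0796, edgeR adjusted *P* = 0.122, DESeq2 adjusted *P* = 1.34e-05), and it passed the edgeR threshold in the fit of all 12 libraries (adjusted *P* = 0.0278). *Fam171a2*, *Ctnnd2* (delta-catenin, an adhesion protein of dendrites) and *Dact3* (an inhibitor of Wnt signaling) differed by -0.40, -0.30 and -0.29 without overlap.

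Glutamate receptors and their scaffolds had a median of -0.11 over 32 genes, with 11 lower (3.66% of all genes, and 11.6% of those at 100 CPM or more) and 0 higher at an unadjusted *P* under 0.05, and 4 to 11 lower with each library left out. The lower genes included the scaffolds *Shank1*, *Shank2*, *Shank3*, *Dlg2*, *Dlg4*, *Homer2* and *Homer3*, and the receptor subunits *Grin2a* and *Grin2b* at -0.29 and -0.30. The AMPA receptor subunits *Gria1* and *Gria2* differed by -0.17 and -0.12. Of the 11 lower genes, 7 were scaffolds and 4 were receptor subunits, *Grin2a* and *Grin2b* among them. Whether this split differs from that of the whole list was not tested. GABA-A receptor subunits had a median of -0.13 over 12 genes with 0 at an unadjusted *P* under 0.05, and of -0.04 without KO-Nut3 RH6 and -0.05 without WT-Veh RH2. *Cyfip2*, a partner of FMRP in the WAVE complex, measured 1103, 1005 and 1026 CPM in WT-Veh and 841, 921 and 911 CPM in KO-Nut3 (difference -0.23, edgeR adjusted *P* = 0.367). The paralogs of *Fmr1*, *Fxr1* and *Fxr2*, differed by 0.13 and 0.04 with overlapping groups. Of 23 genes of mTOR signaling and translation control the median was 0.00, with *Mtor* at -0.16.

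**Figure D5:**
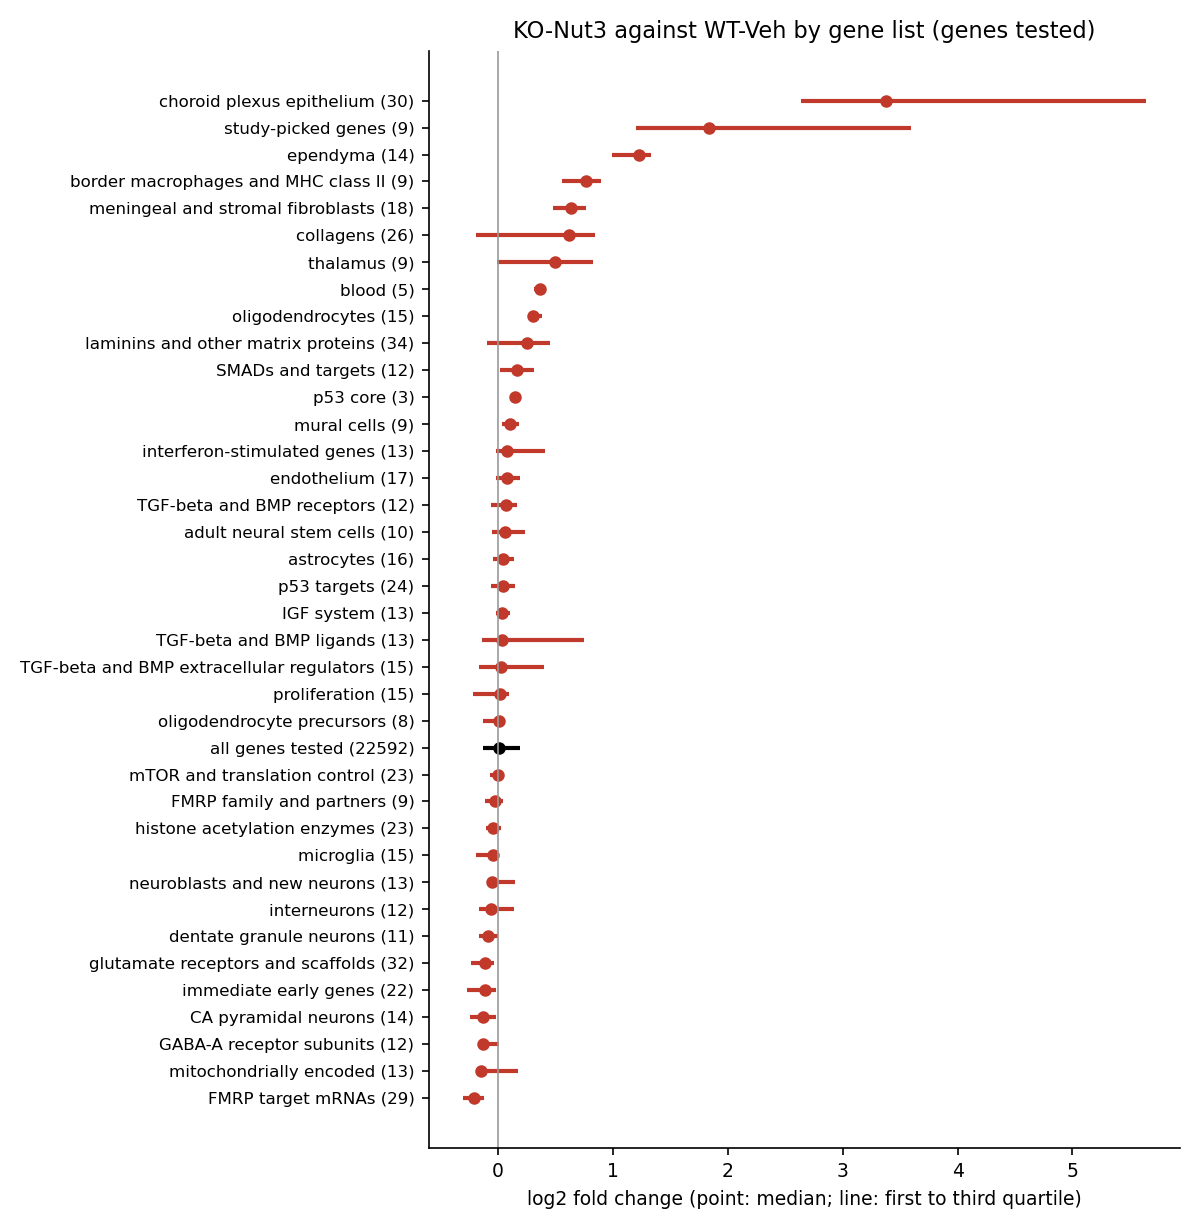
Median log2 difference of KO-Nut3 from WT-Veh for each of 37 gene lists, with bars from the lower to the upper quartile, and all genes tested in black at 0.01. Choroid plexus epithelium (3.38), the study-picked genes (1.84) and ependyma (1.23) lie highest, and the FMRP target mRNAs (-0.21) lie lowest.

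After *Ttr*, the greatest differences without overlap in either direction included genes of low level. *Pou4f2*, a transcription factor of neurons, had 0 counts in all WT-Veh libraries and 6.54, 0.344 and 0.22 CPM in KO-Nut3, at least 13.2-fold higher and mostly through KO-Nut3 RH6. *Sult1c2*, a sulfotransferase, had 0 counts in WT-Veh and 2.55, 0.0573 and 2.25 CPM in KO-Nut3, at least 9.04-fold higher in the group mean, a bound carried by RH6 and RH13, since the RH8 level is under the 3-count floor. In the other direction *Trh*, the gene of thyrotropin-releasing hormone, measured 0.299, 0.42 and 2.78 CPM in WT-Veh and 0.166, 0.115 and 0.22 CPM in KO-Nut3, and its difference of -2.77 was -1.08 at its smallest with a library left out. *Mcidas*, which starts the program of multiciliated cells, was lower at 1.37, 0.893 and 0.927 CPM in WT-Veh against 0.666, 0.286 and 0.22 CPM in KO-Nut3 (difference -1.42, edgeR adjusted *P* = 0.406), in the direction opposite to *Foxj1* and *Hydin*.

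In the insulin-like growth factor (IGF) system, 3 of 13 genes had an unadjusted *P* under 0.05, all higher in KO-Nut3 (5.5% of all genes). The list median was 0.03, and 0.03 to 0.08 with a library left out. Of the ligands, *Igf2* measured 0.299, 3.26 and 0.773 CPM in WT-Veh and 5.43, 5.84 and 4.28 CPM in KO-Nut3 (difference 1.82, SE 0.59, edgeR adjusted *P* = 0.387), and *Igf1* differed by 0.10. WT-Veh RH5 was close to the KO-Nut3 libraries in *Igf2*, and without it the difference was 3.23 (edgeR adjusted *P* = 0.107). Of the binding proteins, *Igfbp2* measured 21.0, 31.4 and 18.0 CPM in WT-Veh, 23.1, 16.5 and 22.3 CPM in KO-Veh and 87.5, 53 and 113 CPM in KO-Nut3 (difference 1.84, SE 0.275, edgeR adjusted *P* = 0.122, DESeq2 adjusted *P* = 0.000655). *Igfbp2* was lowest of its group in KO-Nut3 RH8, as the choroid plexus genes were. *Igfbp7* differed by 0.62, and *Igfbp3*, *Igfbp4*, *Igfbp5* and *Igfbp6* by -0.05, -0.02, 0.02 and -0.09. The receptors *Igf1r* and *Insr* differed by 0.06 and 0.03.

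TGF-β and BMP ligands had a median of 0.03 over 13 genes, and 2 were higher at an unadjusted *P* under 0.05 (5.5% of all genes), *Bmp6* and *Bmp4* at 1.20 and 0.75. With a library left out the count was 1 to 4 and the median 0.07 to 0.13. *Bmp6* measured 6.27, 18.3 and 7.78 CPM in WT-Veh and 24.3, 26.3 and 23.9 CPM in KO-Nut3 (SE 0.325, edgeR adjusted *P* = 0.293), WT-Veh RH5 being nearest to KO-Nut3. Without WT-Veh RH5 its difference was 1.82 and passed the edgeR threshold, as did that of *Angptl2*, a secreted angiopoietin-like protein, at 2.6. Among the receptors, *Tgfbr3*, the co-receptor betaglycan, *Tgfbr2* and *Bmpr1a* differed by 0.45, 0.26 and 0.16, and *Acvr2a* by -0.20. Among the SMADs and their targets 3 of 12 were higher at an unadjusted *P* under 0.05 (5.5% of all genes). These were *Id1* and *Id3*, inhibitors of differentiation that BMP signaling induces, at 0.69 and 0.35, and *Smad5* at 0.18. The extracellular regulator with the greatest difference was *Sostdc1* at 3.46, a secreted antagonist that is also in the choroid plexus list. The inhibitors *Nog* and *Chrd* differed by -0.27 and -0.26.

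The 9 genes that the study picked for qPCR were chosen on these mice, so their direction is not independent evidence. Of these genes 8 were higher than WT-Veh in KO-Nut3 without overlap (7.92% of all genes), the exception being *Gm21887*. The median was 1.84 and ran from 1.56 to 3.23 as libraries were left out. The mean log2 CPM of the 9 genes was 0.83 to 1.97 in WT-Veh, 2.90 to 4.59 in KO-Nut3 and 1.41 to 5.30 in WT-Nut3. The highest WT-Nut3 library was thus above every KO-Nut3 library. *Tmem72* and *Aqp1* differed by 7.66 and 5.32. *Timp3*, an inhibitor of matrix metalloproteinases, measured 45.7, 77.0 and 77.5 CPM in WT-Veh and 90.7, 94.1 and 84.2 CPM in KO-Nut3 (difference 0.42, edgeR adjusted *P* = 0.505).

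In the pathway on which Nutlin-3 acts, *Mdm2* measured 52.4, 54.7 and 57.9 CPM in WT-Veh and 60.4, 60.3 and 62.2 CPM in KO-Nut3 (difference 0.15, SE 0.0649, edgeR adjusted *P* = 0.543). *Trp53*, the gene of p53, differed by 0.17 (95% interval -0.02 to 0.36). *Mdm2* was 62.6, 62.3 and 52.0 CPM in KO-Veh, which covers the KO-Nut3 values. Of 24 p53 target genes the median was 0.04 (-0.02 to 0.08 with a library left out), with 2 higher and 1 lower at an unadjusted *P* under 0.05, shares near the 5.5% and 3.66% of all genes. *Cdkn1a*, the cell cycle inhibitor p21, differed by 0.03, *Bax* by -0.00 and *Ccng1* by 0.01. *Perp*, a p53 target that is also a junction protein of epithelia, had the greatest difference of the list at 1.24 (10.2, 5.79 and 9.34 CPM in KO-Nut3 against 2.75, 4.68 and 3.24 CPM in WT-Veh, DESeq2 adjusted *P* = 0.00245). Of 23 histone acetylation enzymes the median was -0.05 and only *Kat2a*, a histone acetyltransferase, had an unadjusted *P* under 0.05, at -0.21 (3.66% of all genes were lower). Without KO-Nut3 RH6, 4 genes were lower at an unadjusted *P* under 0.05, and the median was -0.01 without KO-Nut3 RH13. *Ep300*, *Hdac1* and *Hdac2* differed by -0.04, -0.02 and -0.02.

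Genes of adult neurogenesis had medians close to that of all genes. The median was 0.06 over 10 stem cell genes, 0.02 over 15 proliferation genes and -0.05 over 13 genes of neuroblasts and new neurons. With a library left out they ran from 0.02 to 0.16, from -0.13 (without WT-Veh RH5) to 0.08 and from -0.06 to 0.04. *Ccnd1*, the cyclin of the early cell cycle, had the lowest *P* among the proliferation genes, at 34.8, 31.3 and 42.7 CPM in WT-Veh and 19.6, 24.2 and 28.2 CPM in KO-Nut3 (difference -0.59, SE 0.151, edgeR adjusted *P* = 0.263, DESeq2 adjusted *P* = 0.025). *Dcx*, the microtubule protein of immature neurons, differed by -0.08 (95% interval -0.31 to 0.15), and *Mki67*, a mark of dividing cells, by -0.37. Of the neuroblast genes 2 were higher at an unadjusted *P* under 0.05 (5.5% of all genes), *Igfbpl1* at 1.37 and *Eomes*, a factor of intermediate progenitors, at 2.03. *Eomes* overlapped between groups, and both were under 5 CPM in every WT-Veh and KO-Nut3 library. *Neurog2*, a factor of neuronal precursors, was among the 5 genes with the greatest lower differences of those without overlap, an unadjusted *P* under 0.05 and at least 1 CPM in the higher group, at 1.19, 1.89 and 0.927 CPM in WT-Veh and 0.333, 0.229 and 0.549 CPM in KO-Nut3 (difference -1.83, edgeR adjusted *P* = 0.247).

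Immediate early genes, which neurons induce when active, had a median of -0.12 over 22 genes with 1 lower at an unadjusted *P* under 0.05 (3.66% of all genes). The median turned to 0.09 without WT-Veh RH15 and was -0.26 without WT-Veh RH2, so its direction rested on WT-Veh RH15. The number lower at an unadjusted *P* under 0.05 was 0 to 5 with a library left out. In KO-Veh against WT-Veh the median of these genes was 0.28, and in KO-Nut3 against KO-Veh it was -0.37. *Arc* measured 91.7, 153 and 207 CPM in WT-Veh, 201, 232 and 270.5 CPM in KO-Veh and 155, 187 and 123 CPM in KO-Nut3. The KO-Nut3 libraries lay inside the wide range of WT-Veh.

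Myelin genes of oligodendrocytes gave a median of 0.30 over 15 genes, with 7 higher (5.5% of all genes) and 0 lower at an unadjusted *P* under 0.05. With each library left out the median was 0.18 to 0.49 and the number higher 2 to 13, both lowest without WT-Veh RH2 and highest without WT-Veh RH15. *Mbp*, myelin basic protein, measured 1798, 2059 and 2514 CPM in WT-Veh and 2874, 2450.4 and 2446 CPM in KO-Nut3 (difference 0.29, SE 0.124, edgeR adjusted *P* = 0.534). WT-Veh RH2 was the lowest library and KO-Nut3 RH6 the highest, and the groups overlapped. Among astrocyte genes the water channel *Aqp4* measured 131, 133 and 132 CPM in WT-Veh, 192, 174 and 152 CPM in KO-Nut3 and 159.5, 152 and 163 CPM in KO-Veh (difference 0.39, SE 0.0827, edgeR adjusted *P* = 0.19, DESeq2 adjusted *P* = 0.0173). *Gfap*, the intermediate filament of astrocytes, differed by 0.24, and the astrocyte list had a median of 0.05 (-0.02 to 0.09 with a library left out). Microglial genes had a median of -0.05 over 15 (-0.13 to -0.01 with a library left out), with *Cx3cr1*, the fractalkine receptor, at -0.29. With a library left out the endothelium median was 0.02 to 0.16 and that of mural cells -0.03 (without KO-Nut3 RH8) to 0.25. With all libraries the medians were 0.08 for endothelium, 0.10 for mural cells, 0.37 for the 5 blood genes, -0.09 for dentate granule neurons, -0.13 for CA pyramidal neurons and -0.06 for interneurons. With a library left out these 3 neuronal medians ran from -0.19 to 0.04, from -0.22 to -0.01 and from -0.12 to 0.07, each highest without KO-Nut3 RH6. Without that library the median of the blood genes was 0.13. Border macrophage and MHC class II genes had a median of 0.77 over 9 genes, from 0.36 to 1.44 with libraries left out. With all libraries 0 of them had an unadjusted *P* under 0.05. Without WT-Veh RH5, 6 of the 9 were higher at an unadjusted *P* under 0.05 (1088 of all 22592 genes were in that fit). The thalamus list had a median of 0.50, and -0.06 without KO-Nut3 RH6. Mitochondrially encoded genes had a median of -0.15 over 13 (-0.18 to -0.09 with a library left out). Their differences went both ways, 6 above and 7 below 0, from -0.32 to 0.54. Among the lower ones, *mt-Nd5* measured 3303, 3072 and 3249 CPM in WT-Veh, 2354, 2525 and 2851 CPM in KO-Nut3 and 2677, 2432 and 2819 CPM in KO-Veh.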

How the data were processed

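Poly(A) RNA of 12 mouse hippocampi was sequenced, 3 per group. The authors mapped the reads to mm10 with STAR (version not given in the sources used here) and deposited raw counts of uniquely mapped reads per gene for each library. The counts over both strands were used, without regard to strand, so genes that overlap or lie antisense cannot be told apart. The labels give a single-read layout and the study's methods paired-end reads, which was not settled. A count table of the whole series was not used for tests. Groups came from the labels.

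From these counts TMM factors were computed over the 12 libraries with edgeR 4.0.16 (R 4.3.3). A gene was tested if it had over 20 counts summed across all libraries, which 22592 genes did. Each comparison was fitted on its own 6 libraries by edgeR's quasi-likelihood method (two-sided), and *P*-values were adjusted over all genes tested (Benjamini-Hochberg). The standard error is the size of the log2 fold change over the square root of *F*. Groups with at most 3 counts per library were taken as at the floor (at most 0.179 CPM), which covers counting error only. Log2 CPM used a prior count of 1. Names and coordinates are of GENCODE M21 (GRCm38).

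Members and lists were chosen with earlier results of these data known, and no list was tested as a set. Genes named are those past the threshold in KO-Nut3 or KO-Veh against WT-Veh, in each direction the 8 with the smallest *P* (at least 1 CPM) and the 5 with the greatest non-overlapping difference, the genes the study picked, and from each of the 37 lists the most abundant gene and 2 per direction with the smallest *P*. Further genes were added with their values in view. *Igfbp1* and *Mia* of the lists had too few counts. Alternatives were DESeq2 1.42.0, limma-voom (limma 3.58.1), DESeq2 size factors, filterByExpr, no filter beyond 1 count, all 12 libraries in a single fit, robust dispersion, a term for the animal number (RH8 and below, or RH9 and above), a term for the choroid plexus score, and the omission of each library. Leaving out RH2, RH6, RH13 or RH15 for the lists, and distances without listed genes, were added after seeing the data. The tests were checked on simulated data. Some results are not reported here.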

Additional observations from a re-analysis of the deposited data

Results flagged for a closer look

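Signals appeared in WT-Nut3 libraries, which the comparison does not use. The mean log2 CPM of the choroid plexus genes was 5.18 in WT-Nut3 RH9, a library of a WT mouse, against 0.92 in the highest WT-Veh library, and lay among the KO-Nut3 values of 2.57 to 5.27. *Gm21887* reached 28.9 CPM in WT-Nut3 RH9 and 18.4 CPM in RH14 of the same group, where the value was 0.21 CPM in the highest WT-Veh library and 9.96 to 13.8 CPM in KO-Veh. The differences of these single libraries were not tested.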

How the results depend on the processing

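Genes past the threshold in KO-Nut3 against WT-Veh, 1 in the edgeR fit, numbered 218 with DESeq2, 391 with all genes of at least 1 count, 2 with all 12 libraries in a single fit (*Fmr1* and *Arhgap33*), 2 with robust dispersion (*Fmr1* and *Vcam1*), 3 with the animal number as a term (*Fmr1*, *Muc19* and *Saa3*, the last pair through WT-Veh RH15 alone) and 0 to 195 with a library left out. The 0 came without WT-Veh RH2 (1316 genes at an unadjusted edgeR *P* under 0.05) and without WT-Veh RH15 (2049), the 195 without KO-Nut3 RH8, and the count was 3 without WT-Veh RH5 or KO-Nut3 RH13 and 5 without KO-Nut3 RH6. Limma-voom, DESeq2 size factors, filterByExpr and the choroid plexus score as a term each gave 1. In KO-Veh against WT-Veh the 4 genes became 27 with DESeq2, 273 with all genes of at least 1 count, 1 with all 12 libraries, 21 with the animal number, 1 with the choroid plexus score and 2 to 13 with a library left out. The *Fmr1* difference of -1.29 ranged from -1.39 to -1.22 with a library left out. The median of the FMRP target mRNAs ranged from -0.25 to -0.16. No result changed sign past the threshold. Of 185 named genes besides *Fmr1*, some picked for a small *P* in this comparison, 35 passed the threshold with DESeq2 (1.03% of all genes), 47 with all genes of at least 1 count (391 of 35930 genes) and 22 without KO-Nut3 RH8 (0.863%). No paired analysis was made, because each library is from a separate mouse and the labels used here give no litter by which to pair them. At this depth the interval lay within 2-fold for 2.886% of genes under 1 CPM. Where a count moved, the cause was not tested.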
